A study of Mus musculus with 6 samples.

Results

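In RNA sequencing of mouse liver, 31 of the 55450 genes in the deposited table were at or near 0 in every wild-type liver and were counted in every liver in which LKB1 had been targeted. Members were chosen on CPM, a gene's counts per 1000000 counts of its library. A gene had to be at 0.2 CPM or less in all 3 wild-type (WT) libraries and at 0.3 CPM or more in all 3 knockout (KO) libraries. Its KO mean also had to be at least 5 times its WT mean. These conditions were met by 51 features, of which 20 were set aside by name (collagens, cytochromes P450, major urinary proteins, serpins, sulfotransferases, solute carriers, predicted genes with Gm numbers, Ren1, Myo7b and Baiap2l2). Because the difference between KO and WT chose the genes, their levels in the 2 groups are given as a description, with no test of that difference.

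The study asked how loss of LKB1 alters the liver. LKB1 fl/fl mice and WT mice of strain C57BL/J were both injected with AAV8 Cre, an adeno-associated virus carrying the recombinase, at 6 weeks of age. Left liver lobes were taken at 10 weeks of age from 3 mice of each genotype, and polyadenylated RNA was sequenced. The controls thus received the virus and Cre but are labelled normal in genotype, so the floxed allele and its loss differ together between the groups. The promoter that drives Cre is not given in the sources used here, and the cells it acts in are therefore not stated. In bulk tissue, a change in the number of cells of a type and a change in RNA per cell cannot be told apart.

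LKB1, encoded by Stk11, is a serine/threonine kinase that activates AMPK and its relatives, among them the salt-inducible kinases. In hepatocytes these kinases hold back CRTC coactivators of the transcription factor CREB and thereby limit gluconeogenic genes. Many genes of other tissues are kept silent in a healthy hepatocyte.

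Library totals ranged from 47659122 to 56147667 counts, so that 3 counts, taken as the limit that a count of 0 allows, correspond to 0.0534 to 0.0629 CPM. This limit covers counting error only. Stk11 itself stood at 23.0, 15.7 and 10.5 CPM in KO 1, KO 2 and KO 3, and at 67.5, 61.1 and 68.4 CPM in WT 1, WT 2 and WT 3, so the labels and the targeted gene go together in every library. The libraries fall into 2 kinds that the labels do not mention. KO 1 and WT 1 held 42472 and 29243 counts of Xist, the non-coding RNA of the inactive X chromosome, and almost none of 4 Y-linked genes (6 and 3 counts). The other 4 libraries held 6146 to 8199 Y-linked counts and at most 16 of Xist. The 10 hepatocyte markers were all well above 0, and none of them passed the test between the groups, with sums of 99620, 39087 and 54368 CPM in KO and 110287 to 160356 CPM in WT.

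The label "silent" holds only in part. Of the 31 genes, 14 had 3 counts or fewer in each WT library and 2 of these, Iqca and Siah3, had no count in any of them. The other 17 had a few counts, never more than 9 in a WT library, against never fewer than 16 in a KO library. In KO liver they remained low-level genes. Their KO means ranged from 0.373 to 7.53 CPM with a median of 1.43, and only 1 of them, Tg, had a KO mean of 5 CPM or more. Summed over all 31 genes, the level was 34.3, 75.0 and 48.4 CPM in KO 1, KO 2 and KO 3, and 1.79, 1.76 and 1.64 CPM in WT 1, WT 2 and WT 3.

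**Figure D1:**
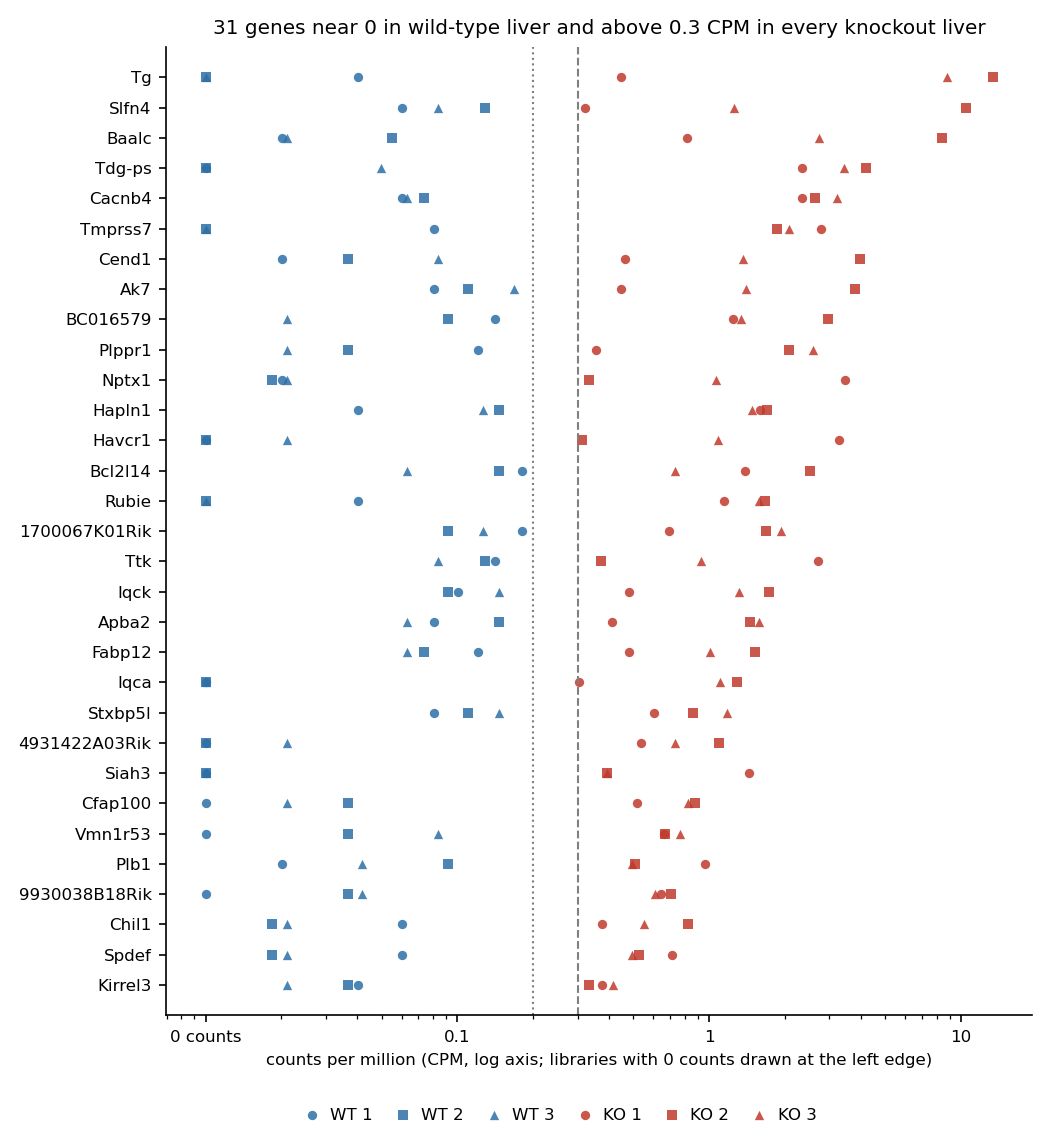
Level of each of the 31 genes in each library, on a logarithmic axis in CPM, ordered by KO mean. Blue symbols are the 3 WT libraries and red symbols the 3 KO libraries; the dotted line marks the WT ceiling of 0.2 CPM and the dashed line the KO minimum of 0.3 CPM, and libraries with 0 counts are drawn at the left edge. The groups are apart for every gene because the rule required it, while the spread of the red symbols ranges from 1.15-fold for Hapln1 to 32.7-fold for Slfn4.

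Per kilobase of annotated exon, the KO mean had a median of 0.311 CPM per kilobase and ran from 0.0561 for Plb1 to 1.12 for Tdg-ps. Each of the 28 protein-coding members lay below the median protein-coding gene among those tested, which stood at 2.79 CPM per kilobase in KO liver. Their median of 0.308 CPM per kilobase exceeded only 15.4% of those 13048 genes.

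The thresholds cut through a continuous range. Bcl2l14 and 1700067K01Rik (both 0.181 CPM) and Ak7 (0.168 CPM) came closest to the WT ceiling from inside, and Creb3l4 (0.21 CPM), Mmp13 (0.21 CPM) and Akr1c18 (0.221 CPM) lay just outside it. At the KO minimum, Iqca (0.303 CPM in its lowest KO library), Havcr1 (0.313 CPM) and Slfn4 (0.321 CPM) were just inside, whereas Lmod3 (0.285 CPM), Gpr55 (0.285 CPM) and 4932411K12Rik (0.274 CPM) were just outside. In the ratio of means, Stxbp5l (7.84), Iqck (10.4) and 1700067K01Rik (10.8) were the nearest inside, and only Rasl10b (3.97) and S100a9 (3.32) failed this condition alone. With the groups exchanged, the same 3 conditions and exclusions were met by 12 genes, among them Btnl9, Mycn and Ces4a.

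In the fit over all genes (edgeR's quasi-likelihood test, Benjamini-Hochberg adjustment), 26 of the 31 genes passed an adjusted p of 0.05 as higher in KO, where 2.15% of the 14539 genes tested did so. Nothing is read from this count, since the same contrast chose the genes. All 31 passed the filter on low counts, and did so only through the KO libraries. Slfn4, Ak7, Plppr1, Ttk and Siah3 were the 5 that did not pass. Calls in this contrast rest on few mice: over all genes they numbered 490, but 6 without WT 2 and 4473 without KO 1, and the calls of single genes given below share this limit. In every one of the 31 each KO library was above each WT library, as the rule demands, which held for 19.6% of the genes tested.

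The pseudogene Tdg-ps (ENSMUSG00000047347.7, chr15:82516311-82519278, plus strand, GRCm38) is a member with a near-identical parent gene, so its counts depend on how reads were divided between them. It is a processed copy of Tdg, which encodes thymine DNA glycosylase, an enzyme of base excision repair that also takes part in active DNA demethylation. The copy aligned to the 1191 nt of the Tdg coding sequence with 1177 identical bases and 14 mismatches (98.8%). The 76 nt window with the most differences is shown because a read there can tell the pair apart. It spans bases 918 to 993 of the Tdg coding sequence and bases 1091 to 1166 of the Tdg-ps transcript in the GENCODE M21 annotation. Capitals mark the 4 bases that differ:
Tdg: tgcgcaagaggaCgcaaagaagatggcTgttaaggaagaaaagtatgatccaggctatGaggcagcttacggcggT
Tdg-ps: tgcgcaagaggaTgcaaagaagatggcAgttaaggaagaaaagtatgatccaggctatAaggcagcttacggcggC
Of the 1116 windows of 76 nt (the length of 1 read) in the coding sequence, 552 (49.5%) occur unchanged in Tdg-ps. Of the 2893 such windows along the Tdg-ps transcript, 1235 (42.7%) occur unchanged in a Tdg transcript, and the others do not.

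Tdg-ps stood at 2.33, 4.18 and 3.44 CPM in KO 1, KO 2 and KO 3, and at 0, 0 and 0.0497 CPM in WT 1, WT 2 and WT 3. The KO mean of 3.31 ± 0.932 CPM (SD, n = 3) was at least 55.7-fold higher than a WT level of 3 counts per library. Tdg itself, on chromosome 10, moved the other way, at 5.75, 10.1 and 7.23 CPM in KO liver against 16.3, 19.7 and 20.1 CPM in WT liver. No KO library reached the lowest WT library. Its log2 fold change was -1.34 ± 0.22 (SE, adjusted p = 0.033, edgeR).

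The sum of the pair was also lower in KO liver, at 8.08, 14.2 and 10.7 CPM against 16.3, 19.7 and 20.2 CPM. Tdg-ps made up 28.8, 29.3 and 32.2% of that sum in the KO libraries and 0, 0 and 0.246% in the WT libraries, so its share was nearly the same in the 3 KO livers. Tdg lies 2.5 Mb from Stk11 on the same chromosome, whereas Tdg-ps is on chromosome 15. Counts were estimated by RSEM, which divides reads that fit both places, and how many reads were shared was not analysed here.

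**Figure D2:**
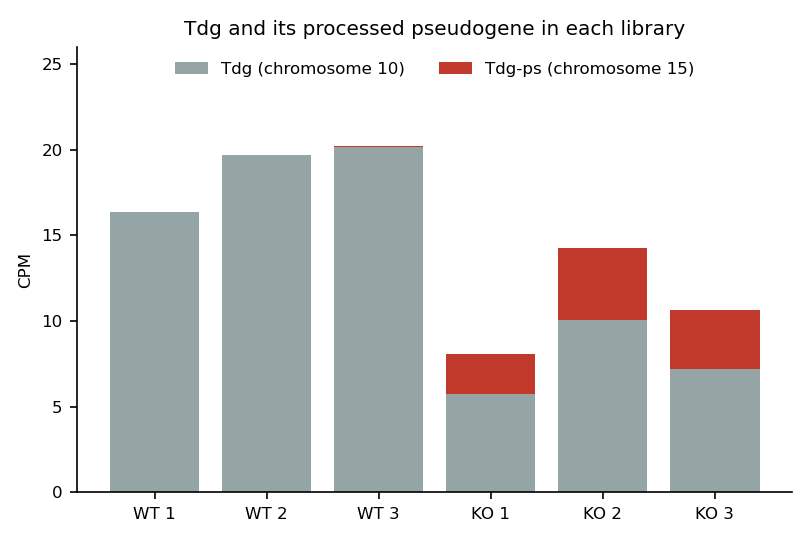
Level of Tdg (grey) and of its processed pseudogene Tdg-ps (red) stacked for each library, in CPM. Tdg-ps fills 28.8 to 32.2% of the bar in the KO libraries and at most 0.246% in the WT libraries, while the whole bar is lower in KO.

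Among secreted proteins, Tg gave the highest KO mean of all 31 genes. Tg (chr15:66670753-66850721, plus strand) encodes thyroglobulin, the large precursor protein from which the thyroid makes its hormones. It stood at 0.445, 13.3 and 8.79 CPM in KO 1, KO 2 and KO 3 and at 0.0403, 0 and 0 CPM in WT 1, WT 2 and WT 3. In counts this was 25, 683 and 447 against 2, 0 and 0. The KO mean of 7.53 ± 6.54 CPM was at least 127-fold higher than 3 counts per WT library, and KO 1 lay far below the other KO livers.

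The other genes of a thyroid follicle were near 0 or did not pass the test. Of the 10 genes on that list, 7 had at most 3 counts in every library, and Slc5a5 (the iodide transporter), Tshr (the receptor for thyrotropin) and Nkx2-1 had none. Iyd and Dio1, which liver also expresses, were tested and did not pass.

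Hapln1, which links hyaluronan to proteoglycans in the extracellular matrix, was the most even of all 31 genes. It stood at 1.59, 1.7 and 1.48 CPM in KO and at 0.0403, 0.147 and 0.126 CPM in WT. Its KO libraries differed by 1.15-fold from lowest to highest. Vcan, the proteoglycan gene that lies 43660 bp from it on chromosome 13, did not pass the test and was at 0.321, 1.52 and 0.512 CPM in KO and 0.181, 0.0551 and 0.252 CPM in WT. Chil1, a secreted chitinase-like glycoprotein without chitinase activity, was at 0.374, 0.821 and 0.551 CPM in KO and between 0.0184 and 0.0604 CPM in WT.

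A further 8 genes are best known from neurons, a grouping made after the members were known. They summed to 8.83, 20.0 and 14.1 CPM in KO 1, KO 2 and KO 3 and to 0.443, 0.514 and 0.441 CPM in the WT libraries. Of the 8 genes, 6 were lowest in KO 1, as were 70.9% of the 313 genes called higher in KO in the whole table. Cacnb4 (chr2:52428320-52676831, minus strand) encodes an auxiliary beta subunit of voltage-gated calcium channels. It was at 2.33, 2.62 and 3.23 CPM in KO and at 0.0604, 0.0734 and 0.0629 CPM in WT, a KO mean of 2.73 ± 0.456 CPM that was 41.6 times the WT mean. All 3 KO livers were close to each other. A430018G15Rik overlaps Cacnb4 on the opposite strand, and 17.5% of the longest Cacnb4 transcript matched another transcript at 98% identity or more. That antisense gene was present in both groups, at 4.93, 2.42 and 2.64 CPM in KO and 2.13, 2.46 and 2.12 CPM in WT (adjusted p = 0.333, edgeR), and the use of strand in the counting is not given.

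Baalc (chr15:38933144-38952912, plus strand), a membrane-associated protein of brain and of immature blood cells, varied much more. It stood at 0.819, 8.38 and 2.73 CPM in KO and at 0.0201, 0.0551 and 0.021 CPM in WT. Cend1 (chr7:141426446-141429491, minus strand), which promotes cell-cycle exit of neuronal precursors, had the same order, at 0.463, 3.97 and 1.36 CPM in KO and 0.0201, 0.0367 and 0.0839 CPM in WT. For both genes KO 2 was the highest and KO 1 the lowest of the KO livers.

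Plppr1, a membrane protein related to lipid phosphatases that acts on neurite growth, was at 0.356, 2.07 and 2.58 CPM in KO and 0.121, 0.0367 and 0.021 CPM in WT. Apba2, an adaptor that binds the amyloid precursor protein, was at 0.41, 1.45 and 1.57 CPM in KO and 0.0805, 0.147 and 0.0629 CPM in WT. In each of these, KO 2 and KO 3 stood together and KO 1 came nearest to the WT livers.

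Nptx1, a secreted pentraxin of synapses, had the opposite order. It was at 3.47, 0.332 and 1.06 CPM in KO 1, KO 2 and KO 3 and at 0.0201, 0.0184 and 0.021 CPM in WT, which is 1 count in each WT library. The KO mean was at least 27.3-fold higher than 3 counts per library, and KO 1 was 4.98 times the mean of the other KO libraries. Stxbp5l (tomosyn-2), which restrains vesicle fusion by binding syntaxin, was at 0.606, 0.86 and 1.18 CPM in KO and had the smallest ratio of means among the 31 genes. Kirrel3, an immunoglobulin-family adhesion protein, was at 0.374, 0.332 and 0.413 CPM in KO and 0.0403, 0.0367 and 0.021 CPM in WT, the lowest KO mean of the set and 1 of its most even.

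General neuronal markers were near 0 or did not pass the test. Of 10 listed neuron genes 7 had at most 3 counts in every library, and Snap25, Gap43, Elavl4 and Chga had none. The 3 that could be tested did not pass, and the highest of them, Syt1, was at 8.35, 1.45 and 3.31 CPM in KO and 13.6 to 14.4 CPM in WT.

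Among cell-surface proteins and enzymes, Tmprss7 (chr16:45656315-45693658, minus strand), a transmembrane serine protease also called matriptase-3, had the highest KO mean. It was at 2.78, 1.86 and 2.07 CPM in KO and at 0.0805, 0 and 0 CPM in WT. Havcr1 (chr11:46735080-46779578, plus strand) encodes KIM-1, a phosphatidylserine receptor known for its appearance on injured kidney tubules. It stood at 3.28, 0.313 and 1.08 CPM in KO and at 0, 0 and 0.021 CPM in WT, so that KO 1 was 4.7 times the mean of the other KO libraries. Of 10 listed kidney tubule genes, 9 had at most 3 counts in each library and none passed. Timd2, Timd4 and Havcr2, the other genes of the TIM family in the table, did not pass the test either.

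Plb1, a phospholipase of the intestinal brush border, was at 0.962, 0.508 and 0.492 CPM in KO and at most 0.0918 CPM in WT. Of 10 listed enterocyte genes 6 had at most 3 counts in every library and none of the 4 tested passed. Apoa4, an apolipoprotein gene on that list, came closest, at 1652, 416 and 280.4 CPM in KO and 97.4, 53.8 and 61.4 CPM in WT (adjusted p = 0.0507, edgeR), and its groups did not overlap. Vmn1r53, a pheromone receptor of the vomeronasal organ, was at 0.659, 0.664 and 0.767 CPM in KO and at 0, 0.0367 and 0.0839 CPM in WT. It was among the most even members, and 201 of the 209 other vomeronasal type 1 receptor genes in the table had no count in any library. A similar transcript matched 91.3% of it at 90% identity, and none at 98%. Gm20426, a transcribed processed pseudogene, overlaps Vmn1r53 on the same strand. Gm20426 was at 0.499, 0.274 and 0.315 CPM in KO and 0, 0.0918 and 0.0629 CPM in WT (adjusted p = 0.0955, edgeR). Its part in the Vmn1r53 counts was not tested.

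Another 4 members belong to cilia or carry IQ motifs, the calmodulin-binding sequences, and all 4 were highest in KO 2 and lowest in KO 1. Over the 313 genes called higher in KO in the whole table, KO 2 was the highest for 60.4% and KO 1 the lowest for 70.9%. Ak7 (chr12:105705976-105782447, plus strand), an adenylate kinase of motile cilia, was at 0.445, 3.79 and 1.4 CPM in KO and 0.0805, 0.11 and 0.168 CPM in WT. Iqck was at 0.481, 1.72 and 1.32 CPM in KO and 0.101, 0.0918 and 0.147 CPM in WT. Iqca, a component of the ciliary dynein regulatory complex, was at 0.303, 1.29 and 1.1 CPM in KO with no count in WT, at least 15.1-fold higher than 3 counts per WT library. Cfap100, another axonemal protein, was at 0.516, 0.879 and 0.826 CPM in KO and at most 0.0367 CPM in WT. Of the 30 other genes named as cilia and flagella associated proteins, 8 could be tested and none passed.

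Slfn4 (chr11:83175186-83190216, plus strand), a myeloid Schlafen gene induced by interferon, had the widest spread. It was at 0.321, 10.5 and 1.26 CPM in KO 1, KO 2 and KO 3 and at 0.0604, 0.128 and 0.0839 CPM in WT. Its KO 2 level was 32.7 times its KO 1 level. The 120 bases before its annotated start (RefSeq, GRCm38.p6, chr11:83175066-83175185, plus strand) are printed because Slfn4 alone among the members held 3 of the 5 sequences searched. Capitals mark TGACG, which is the core of a CREB site, TGACTCA, the AP-1 site, and TATAAA:
Slfn4 promoter: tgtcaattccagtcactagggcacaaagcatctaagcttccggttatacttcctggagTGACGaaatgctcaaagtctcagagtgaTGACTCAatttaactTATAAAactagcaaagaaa
These are matches of letters, and binding was not measured.

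Other Schlafen genes had the same order of KO libraries but a lower contrast with WT. Slfn9 passed the test, at 10.5, 40.6 and 29.5 CPM in KO and 5.7, 3.21 and 4.26 CPM in WT (log2 fold change 2.58 ± 0.486 (SE), adjusted p = 0.044, edgeR). Slfn8 (2.25, 9.94 and 4.23 CPM in KO, 1.73, 0.918 and 1.22 CPM in WT) and Slfn1 (0.392, 2.38 and 1.12 CPM in KO, 0.221, 0.275 and 0.0839 CPM in WT) did not, nor did Slfn2 and Slfn5. In Slfn2 and Slfn5, KO 1 was below WT 1, so the groups overlapped. Markers of myeloid cells did not pass, with 0 of 10 macrophage genes and 0 of 2 testable neutrophil genes. The macrophage list summed to 224, 132 and 83.7 CPM in KO and 178, 129 and 180 CPM in WT. The neutrophil list summed to 1.10, 0.977 and 0.649 CPM in KO and 0.423, 0.551 and 0.357 CPM in WT. Of its 10 genes, 4 had at most 3 counts in every library. The part of either list in the Slfn4 level was not tested.

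**Figure D3:**
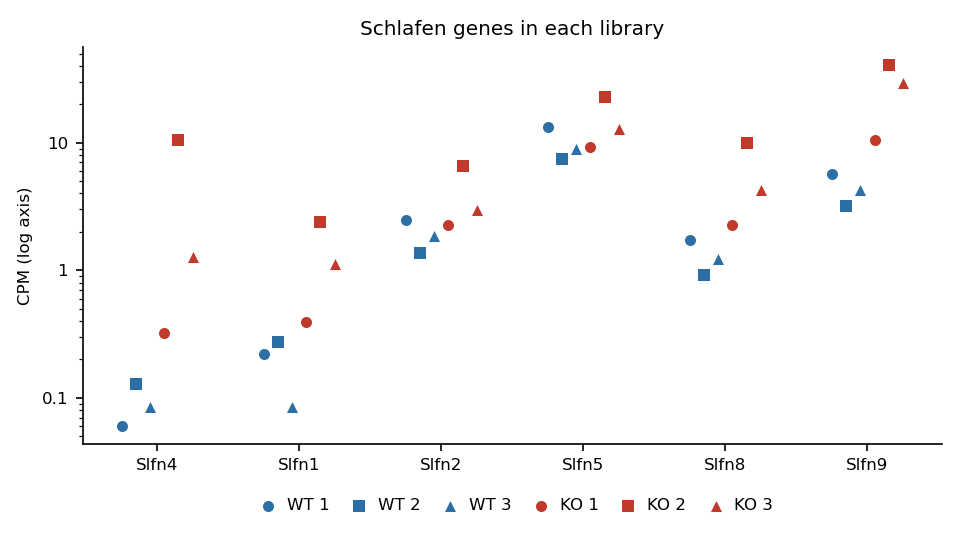
Level of Slfn4 and of the 5 other testable Schlafen genes in each library, on a logarithmic axis in CPM, with WT libraries in blue and KO libraries in red. KO 2 is the highest library for each of the 6 genes, up to 10.5 CPM for Slfn4 and 40.6 CPM for Slfn9, and KO 1 overlaps the WT libraries for Slfn2 and Slfn5.

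The remaining intracellular proteins differed in which KO liver was highest. Bcl2l14, a BCL2-related regulator of apoptosis, was at 1.39, 2.52 and 0.728 CPM in KO and 0.181, 0.147 and 0.0629 CPM in WT. Fabp12, a fatty acid binding protein, was at 0.481, 1.52 and 1.00 CPM in KO and 0.121, 0.0734 and 0.0629 CPM in WT. Siah3, a relative of the SIAH ubiquitin ligases, was at 1.44, 0.391 and 0.393 CPM in KO and had no count in WT, at least 12.5-fold higher than 3 counts per library. Spdef, an ETS transcription factor of goblet cells, was at 0.712, 0.528 and 0.492 CPM in KO and at most 0.0604 CPM in WT. Thus KO 2 led for Bcl2l14 and Fabp12, and KO 1 for Siah3 and Spdef.

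Ttk (chr9:83834689-83872389, plus strand), the spindle checkpoint kinase MPS1, was at 2.71, 0.371 and 0.925 CPM in KO and 0.141, 0.128 and 0.0839 CPM in WT. It is expressed in dividing cells. The 10 listed cell-cycle genes summed to 64.3, 6.02 and 4.23 CPM in KO and 10.4, 5.58 and 6.4 CPM in WT, with KO 1 well above the rest and none of the 8 tested genes passing. Of the KO livers, KO 1 was the highest for Ttk and for the list sum. KO 3 exceeded KO 2 for Ttk (47 and 19 counts) and not for the list. The list's part in the Ttk level was not tested.

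Members of no stated role were BC016579, 1700067K01Rik and 4931422A03Rik. BC016579 was at 1.25, 2.97 and 1.34 CPM in KO and 0.141, 0.0918 and 0.021 CPM in WT. 1700067K01Rik was at 0.695, 1.68 and 1.93 CPM in KO and 0.181, 0.0918 and 0.126 CPM in WT. 4931422A03Rik was at 0.534, 1.09 and 0.728 CPM in KO and at most 0.021 CPM in WT. In all 3, KO 1 was the lowest KO library, as it was for 70.9% of the 313 genes called higher in KO. 4931422A03Rik overlaps Fbxo3 and Lmo2 on the opposite strand. Of its longest transcript, 18.3% matched a Fbxo3 transcript at 98% identity or more. Fbxo3 was at 168, 154 and 167 CPM in KO and 121, 135 and 124 CPM in WT (adjusted p = 0.23, edgeR). The part of either gene in the 4931422A03Rik counts was not tested. The long non-coding RNAs were Rubie (1.14, 1.66 and 1.58 CPM in KO, 0.0403, 0 and 0 CPM in WT) and 9930038B18Rik (0.641, 0.703 and 0.61 CPM in KO, 0, 0.0367 and 0.042 CPM in WT). Both were even across the KO livers.

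The KO livers differed among themselves within the limits of the rule, which required 0.3 CPM in each of them and so bounded the spread and the order. Leaving KO 1 out of the rule let 32 further genes in, against 3 for KO 2 and 5 for KO 3. The highest KO library was less than 2 times the lowest for 12 genes, 2 to 5 times for 10 genes and 5 times or more for 9, with a median of 2.78. KO 1, the KO library with Xist counts, was the lowest of the KO libraries for 20 of the 31 genes, KO 2 for 6 and KO 3 for 5. Over the 313 genes called higher in KO in the whole table, these shares were 70.9%, 11.2% and 17.9%. KO 2 was the highest for 17 members, and KO 1 and KO 3 for 7 each, where the shares over those 313 genes were 60.4%, 11.8% and 27.8%. Nothing is read from these counts, since the rule set a minimum in each KO library. Beyond the genes above, the ratio of KO 1 to the mean of KO 2 and KO 3 was 0.0402 for Tg, 0.0547 for Slfn4, 0.147 for Baalc, 0.153 for Plppr1 and 0.172 for Ak7. At the other end it was 4.98 for Nptx1, 4.7 for Havcr1, 4.18 for Ttk and 3.68 for Siah3.

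**Figure D4:**
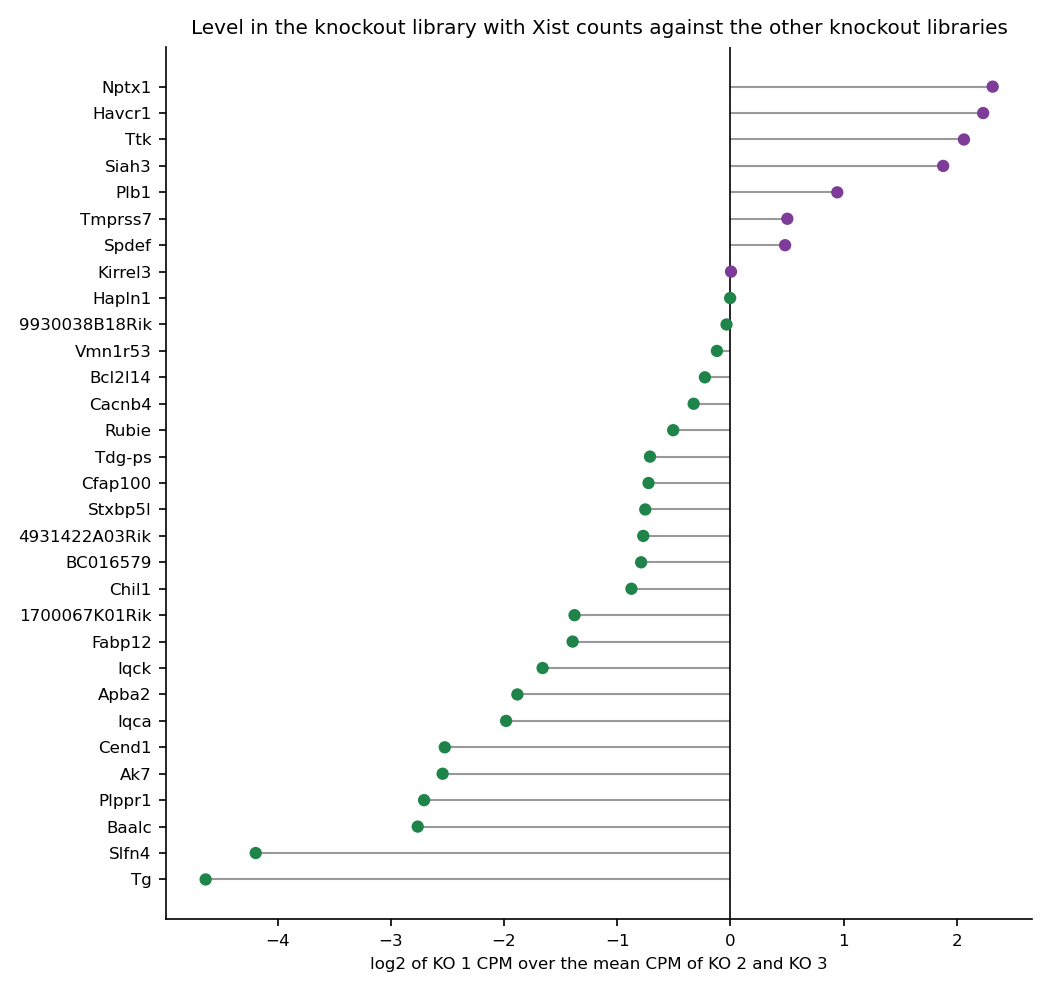
Level in KO 1, the KO library with Xist counts, over the mean of KO 2 and KO 3, as a log2 ratio of CPM for each of the 31 genes. Points left of 0 (green) were lower in KO 1 and points right of 0 (purple) higher, with Tg (ratio 0.0402) and Nptx1 (ratio 4.98) at the ends.

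An interaction term gave, for each gene, how far the KO minus WT difference in the Xist pair (KO 1 and WT 1) departed from that in the other libraries. The rule bounded each member in all 6 libraries and the Xist pair is 1 library of each group, so the members' values are a description, and nothing is read from their counts. Of the 31 genes, 0 had an adjusted p under 0.05 (edgeR), where 2.9% of all genes tested did, and 6 had an unadjusted p under 0.05, where 20.9% did. The closest were Plppr1, with an interaction of -4.64 ± 0.978 on the log2 scale (SE, adjusted p = 0.0798, edgeR), and Tg, with -8.77 ± 1.75 (adjusted p = 0.091, edgeR), and with DESeq2 both passed. The others were Tmprss7, 1700067K01Rik, Rubie and Fabp12, with adjusted p of 0.191 to 0.223 (edgeR). For Tg, Tmprss7 and Rubie the estimates rest on 2, 4 and 2 counts in WT 1 against 0 in WT 2 and WT 3. These WT counts are at or near the limit of 3 counts. Plppr1 had 6 counts in WT 1 against 2 in WT 2 and 1 in WT 3, which are also under or near that limit. The Xist state cannot be told apart from anything else particular to those mice.

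The members lay on 16 chromosomes with at most 3 on any 1 of them. Within 50 kb of the members, 62 further genes could be tested, of which 4 passed as higher in KO (Gprc5b, Gm49319, Gm47391 and Uroc1) and none as lower, where 2.15% of all genes tested passed as higher. Their median log2 fold change was 0.28, beside 0.01 over all genes. Gm49319 and Gm47391 themselves met the levels of the rule and were left out only by name, so nothing is read from the count of 4.

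Tmprss7 and BC016579 are direct neighbours on the same strand, 2247 bp apart. Cend1 lies 253 bp from Slc25a22, which encodes a mitochondrial glutamate carrier and is read on the same strand. Slc25a22 was at 330, 791 and 430 CPM in KO and 208, 154 and 154 CPM in WT (adjusted p = 0.0525, edgeR), and Cend1 amounted to 0.14, 0.501 and 0.315% of it in KO and 0.00967, 0.0239 and 0.0547% in WT. The KO livers thus had the same order in both genes, and reads running on from Slc25a22 were not analysed here.

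Iqck overlaps Gprc5b, an orphan G-protein-coupled receptor gene, on the opposite strand. Gprc5b was at 4.29, 3.81 and 2.99 CPM in KO and 0.765, 0.385 and 0.399 CPM in WT (log2 fold change 2.79 ± 0.33 (SE), adjusted p = 0.0157, edgeR). Without knowledge of strand, reads of such a pair cannot be told apart where their exons overlap. Iqck also overlaps Knop1, which was at 42.9, 67.5 and 52.2 CPM in KO and 29.5, 32.7 and 33.2 CPM in WT (adjusted p = 0.071, edgeR), and 14.8% of the longest Iqck transcript matched a Knop1 transcript at 98% identity or more. Of the KO livers, KO 2 was the highest and KO 1 the lowest for both Iqck and Knop1, whereas Gprc5b was highest in KO 1. Over the 313 genes called higher in KO, KO 2 was the highest for 60.4% and KO 1 the lowest for 70.9%. The part of either gene in the Iqck counts was not tested.

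Gm49319 overlaps Rubie on the same strand and was at 0.497, 0.433 and 0.346 CPM in KO and 0 in each WT library, and 82.5% of the longest Rubie transcript matched another transcript at 98% identity or more, so their counts are uncertain. Gm47391, 19451 bp from 9930038B18Rik, was at 7.78, 5.3 and 6.75 CPM in KO and 0.0604, 0 and 0 CPM in WT. Both of these Gm genes met the levels of the rule and were left out by name.

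**Figure D5:**
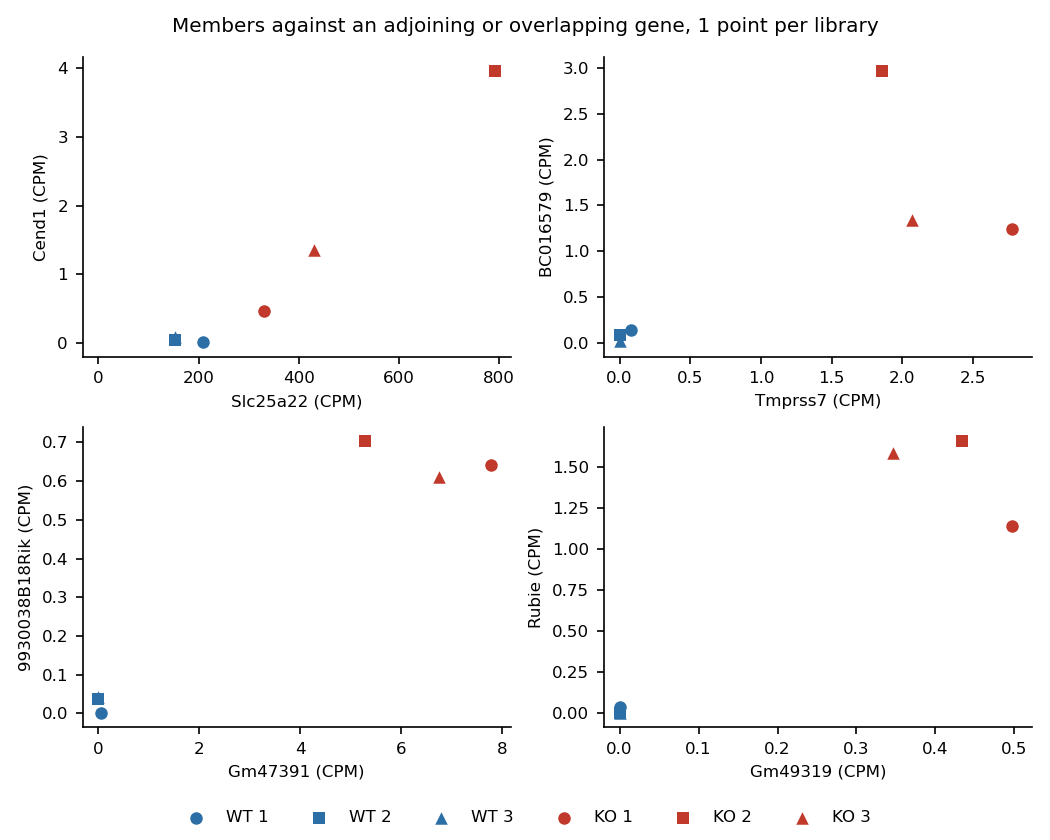
Level of 4 members (vertical axes, CPM) against a gene that adjoins or overlaps each (horizontal axes, CPM), with 1 point per library, WT in blue and KO in red. In each panel the KO points lie above the WT points, and for Cend1 and Slc25a22 the 3 KO points share 1 order.

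Promoter windows, 250 bases before to 50 after an annotated start, were found for 23 of the 31 genes (30 windows, RefSeq, GRCm38.p6). The full CREB site TGACGTCA was in none of them, beside 1.79% of 32851 windows of all genes. Its core TGACG was in 6 (20.0%, against 20.8%), in Slfn4, Havcr1, Hapln1, Spdef, Apba2 and 1700067K01Rik. The AP-1 letters TGANTCA were in 3 (10.0%, against 7.81%), in Slfn4, Havcr1 and Plb1, TATAAA in Slfn4 only (3.33%, against 13.6%) and CACGTG in Ttk only (3.33%, against 7.15%). Both strands were searched, and TGACG is contained in TGACGTCA. CG dinucleotides had a median of 8.5 per window, from 1 to 45, against 7.0 over all windows.

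Known targets of CREB, none of them a member, were also measured. Their list was drawn up with earlier results of these data known, so the counts below are a description. Of 14 tested, 7 passed as higher, where 2.15% of all genes did, and none as lower, with a median log2 fold change of 1.86 beside 0.01 over all genes. Nr4a2 was at 7.27, 8.6 and 14.2 CPM in KO and 0.443, 0.532 and 0.797 CPM in WT. Sik1, itself a kinase that LKB1 activates, was at 83.0, 313 and 175 CPM in KO and 31.2, 22.8 and 41.6 CPM in WT. The others were Nr4a1, Crem, Pde4d, Ppargc1a and Tat.

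Of 362 other genes sharing a family name with a member, 240 had no count in any library and 73 could be tested. Slfn9 and Etv6 passed as higher and Tdg as lower, 3 of 73 where 3.37% of all genes passed in either direction. Etv6, an ETS factor like Spdef, was at 35.9, 32.7 and 32.6 CPM in KO and 19.9, 17.3 and 21.3 CPM in WT. Over all 19 lists of cell types and programmes, 10 of 113 distinct tested genes passed, where 3.37% of all genes did. They were Tg, the 7 CREB targets, Prom1 of the cholangiocyte list and Ly6d of the oncofetal list. Tg was chosen by this same contrast, and the lists were drawn up with earlier results of these data known. Nothing is therefore read from the count of 10.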

How the data were processed

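Polyadenylated RNA of 6 mouse livers (3 KO, 3 WT) was measured. The deposited values are expected counts per gene, which need not be whole. The submitters' processing notes name bcl2fastq 2.17, cutadapt 1.18, STAR 2.7.0f, RSEM 1.3.1 and build mm9. All 55450 gene identifiers matched GENCODE M21, an annotation of GRCm38, from which positions and exon lengths were taken. The use of strand is not given in the sources used here.

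CPM was computed by column total. Expected counts were rounded and fitted with edgeR 4.0.16 (R 4.3.3; filterByExpr, TMM, quasi-likelihood test, Benjamini-Hochberg, threshold 0.05). The fit was also run on simulated data, with changes placed only in genes of higher mean count than most members had. That run therefore does not cover genes as low as these. DESeq2 1.42.0 and limma 3.58.1 served as alternatives. P-values measure the spread between these mice. In the interaction fit that spread comes only from the libraries with Y-linked counts, since the Xist libraries have no replicate within a group. Transcripts were compared over at least 76 nt.

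The members and lists were chosen with earlier results of these data known. Members in full are the 20 protein-coding genes of highest KO mean and those of most even or most uneven KO libraries, of smallest interaction p and nearest a threshold. Same-numbered KO and WT samples had correlations of 0.0443 to 0.178 between deviations from group means, 1 of 3 over 0.1. The highest was that of KO 1 and WT 1, which both hold Xist counts. Whether the numbers pair the mice is not settled by these correlations, and the main fit treated the mice as unpaired.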

Additional observations from a re-analysis of the deposited data

How the results depend on the processing

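The 31 genes became 19 with a WT ceiling of 0.1 CPM, 14 with a KO minimum of 0.5 CPM, and 79 when only libraries with Y-linked counts were used (chosen after seeing the data). Leaving out 1 library gave 32 to 63 genes, the most without KO 1. Calls over all genes numbered 490, against 2246 with DESeq2, 771 without a filter on low counts, 4847 in libraries with Y-linked counts, and 6 to 4473 with 1 library left out (6 without WT 2, 4473 without KO 1). By library size alone the calls were 380 higher and 131 lower, against 313 and 177. With a replicate block there were 105 calls, 7 of them members, against 26 members. Members called ranged from 0 (without WT 2) to 31 (without KO 1) with 1 library left out. The interaction gave 421 genes, 970 with DESeq2, 1607 without the filter, and 67 to 4679 with 1 library left out. Among members it gave 0, but 2 (Tg and Plppr1) with DESeq2 or without the filter, and 0 to 4 with 1 library left out. List genes called were 10, against 59 in libraries with Y-linked counts and 3 with the replicate block. Of 372 alternatives for single members, 139 ended a call, 19 of these under the replicate block; their direction was fixed by the rule. Only 1 sample a group carries the Xist state, and levels under 3 counts could not be resolved at this depth.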
